A study of Mus musculus with 16 samples.

Results

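The D cyclins, their partner kinases and the CDK inhibitors were examined in islets from *db/db* mice that had been cultured for 1 day, with adjudin or with DMSO. The 10 members were the rows of the gene count table with the symbols *Ccnd1*, *Ccnd2*, *Ccnd3*, *Cdk4*, *Cdk6*, *Cdkn1a*, *Cdkn1b*, *Cdkn1c*, *Cdkn2a* and *Cdkn2c*, out of 54532 genes in the table. Each symbol occurred once, and all 10 passed the filter on low counts, which left 16910 genes. The members hold 3 D cyclins, 2 kinases and 5 inhibitors of the Cip/Kip and INK4 families.

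Both groups were islets of male *db/db* mice of strain BKS(D)-Leprdb/JOrlRj, aged 12 to 13 weeks, which lack a working leptin receptor and are obese and diabetic. The islets were treated with 10 µmol/l adjudin, a small molecule found in a zebrafish screen for beta cell function, or with DMSO, its solvent, in RPMI medium with 11 mmol/l glucose. There were 8 samples per treatment, and the labels number 8 batches that each hold 1 adjudin and 1 DMSO sample. A sample was made from the islets of 1 or 2 mice, and mRNA was sequenced from whole islets, so fewer cells of a type and less RNA per cell cannot be told apart in any value below.

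D-type cyclins are made in response to growth signals and switch on the kinases CDK4 and CDK6. The active kinases phosphorylate the retinoblastoma protein and its relatives, which releases E2F factors and opens the way to DNA synthesis. INK4 proteins bind CDK4 and CDK6 and keep the cyclin off, whereas Cip/Kip proteins bind whole cyclin and CDK complexes and block CDK2 most strongly. In mouse beta cells, cyclin D2 and CDK4 are needed for growth of beta cell mass after birth, and the product p16Ink4a of *Cdkn2a* accumulates with age and limits beta cell renewal.

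The sequences upstream of *Cdk4* and *Cdkn2a* are shown because the first holds 4 copies of 1 motif, and the second has separate starts for 2 proteins that share 1 gene count. They are RefSeq sequences of GRCm38.p6, the build of the count table, 250 bases before each start and read 5′ to 3′ on the strand of the gene. Capitals mark CACGTG, the E-box bound by Myc and its relatives, in *Cdk4*, and TTTCCCGC, a match to the E2F site, in *Cdkn2a*.
Cdk4, chr10:127063285-127063534, plus strand: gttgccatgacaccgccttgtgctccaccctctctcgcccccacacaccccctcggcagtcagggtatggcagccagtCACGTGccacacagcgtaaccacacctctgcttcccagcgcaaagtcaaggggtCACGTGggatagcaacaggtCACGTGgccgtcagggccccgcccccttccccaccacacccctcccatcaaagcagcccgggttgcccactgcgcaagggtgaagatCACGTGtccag
Cdkn2a, start of the p19Arf transcript, chr4:89294620-89294869, minus strand: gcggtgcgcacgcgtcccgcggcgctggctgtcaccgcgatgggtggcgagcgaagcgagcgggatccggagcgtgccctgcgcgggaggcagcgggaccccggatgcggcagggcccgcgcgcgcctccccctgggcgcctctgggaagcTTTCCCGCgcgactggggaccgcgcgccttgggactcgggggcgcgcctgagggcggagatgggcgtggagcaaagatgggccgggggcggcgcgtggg
Cdkn2a, start of the p16Ink4a transcript, chr4:89282193-89282442, minus strand: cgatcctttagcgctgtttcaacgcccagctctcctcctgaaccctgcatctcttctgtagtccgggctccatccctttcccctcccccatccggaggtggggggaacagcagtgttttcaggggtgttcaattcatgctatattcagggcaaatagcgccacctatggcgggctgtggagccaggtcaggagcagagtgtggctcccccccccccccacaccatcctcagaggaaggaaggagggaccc

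The *Cdk4* sequence held CACGTG 4 times, beginning 172, 118, 98 and 11 bases before the start. This motif was found, on either strand, in 7.15% of all 32851 RefSeq promoter windows of 250 bases before and 50 bases after a start, and in 3 of the 11 windows of members (*Cdk4*, *Cdk6* and *Cdkn2c*). TTTCCCGC occurred in 1.07% of all windows, and among the members only at the p19Arf start, beginning 99 bases before it. GCGTG, the core bound by the aryl hydrocarbon receptor, was in 32.4% of all windows and in 6 of the 11. The other 3 motifs searched, TGACGTCA (the cAMP response element), TGAGTCA (the AP-1 site) and TTTGGCGC (a further E2F site), were in 1.79%, 5.20% and 0.514% of all windows and in 0 of the 11. TTTGGCGC and TTTCCCGC are alternative spellings of E2F sites, and no listed motif contains another. The 7 members with a window were *Ccnd3*, *Cdk4*, *Cdk6*, *Cdkn1a*, *Cdkn1b*, *Cdkn2a* and *Cdkn2c*. *Ccnd1*, *Ccnd2* and *Cdkn1c* had none.

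Samples held 24852862 to 34471164 counted reads with adjudin and 24190102 to 32675186 with DMSO. Summed markers of beta cells lay at 40022 to 105110 CPM with adjudin and 35958 to 121502 CPM with DMSO, so the defining genes of islet tissue were abundant in every sample. Exocrine acinar markers were also present, at 5658 to 10892 CPM with adjudin and 5295 to 12997 CPM with DMSO. Of the 10 acinar markers 9 had a negative log2 fold change (median -0.28), 1 fell and 0 rose, and their sum was lower with adjudin in 6 of 8 batches. Among all 16910 genes tested, 8215 had a negative log2 fold change, and at an adjusted p under 0.05 2.17% rose and 3.07% fell. CPM is the count relative to the TMM-scaled library size. Of 12 macrophage markers, 10 fell with adjudin and 0 rose, and their summed level was 662 to 907 CPM with adjudin and 692 to 1293 CPM with DMSO, lower in 8 of 8 batches. Of 11 stellate cell and fibroblast markers 7 fell and 0 rose, with a sum of 9302 to 17839 CPM with adjudin and 9737 to 19955 CPM with DMSO, lower in 7 of 8 batches. Of the 9 beta cell markers 3 rose and 0 fell. All 6 alpha, 4 delta and 8 endothelial markers had a positive log2 fold change (medians 0.15, 0.16 and 0.076). Of them only the endothelial marker *Flt1* passed. The summed level of the endothelial markers was higher with adjudin in 4 of 8 batches, and that of the beta cell markers in 6 of 8. Genes of the macrophage, stellate, acinar, beta cell and endothelial lists were called in the same samples as the values below. The part of any cell type in the member results was not tested. None of the macrophage, stellate or beta cell markers was at 0 in any sample.

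Between genes, levels were compared as RPKM, which is CPM divided by the deposited gene length in kilobases. In DMSO islets *Cdkn1a* (58.3 ± 10.9 RPKM) and *Cdk4* (53.8 ± 3.45 RPKM) had the highest levels of the members, followed by *Ccnd2* (24.2 ± 3.12 RPKM), *Cdkn1b* (20.02 ± 1.71 RPKM) and *Ccnd1* (11.1 ± 1.99 RPKM; SD, n = 8 for each). *Ccnd3* (6.64 ± 0.682 RPKM) and *Cdkn2c* (6.64 ± 0.814 RPKM) stood in the middle, and *Cdk6* (1.35 ± 0.407 RPKM), *Cdkn2a* (1.302 ± 0.233 RPKM) and *Cdkn1c* (1.03 ± 0.222 RPKM) were lowest. An inhibitor and a kinase therefore led the list, and the INK4 gene *Cdkn2a*, whose count covers the p16Ink4a and p19Arf transcripts, was more than an order of magnitude below *Cdk4* and close to *Cdk6*.

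The ranges of 5 neighbouring pairs overlapped. *Cdkn1a* exceeded *Cdk4* in 6 of 8 DMSO samples, *Ccnd2* exceeded *Cdkn1b* in 6 of 8, *Ccnd3* exceeded *Cdkn2c* in 4 of 8, *Cdk6* exceeded *Cdkn2a* in 4 of 8, and *Cdkn2a* exceeded *Cdkn1c* in 7 of 8. The remaining 4 steps, *Cdk4* over *Ccnd2*, *Cdkn1b* over *Ccnd1*, *Ccnd1* over *Ccnd3* and *Cdkn2c* over *Cdk6*, held in 8 of 8 samples. The place of *Ccnd3* depended on the length used. The deposited length of 8775 bases covers all exons of the gene, and with the longest basic transcript of the GENCODE M21 annotation, 2113 bases, its DMSO level was 27.6 RPKM, above *Cdkn1b* (20.02 RPKM) and *Ccnd1* (13.9 RPKM).

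**Figure D1:**
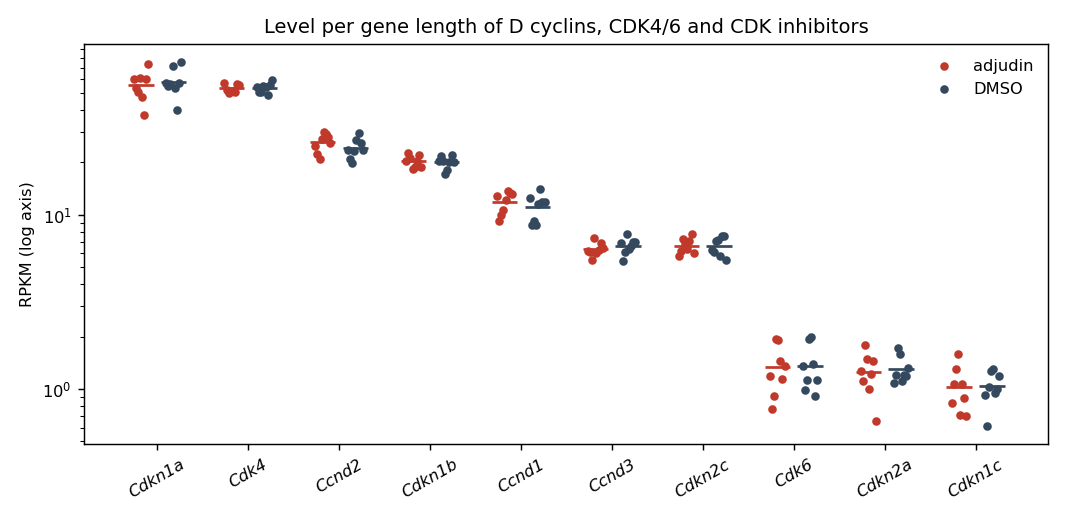
Level of each member in RPKM (log axis), ordered by the DMSO mean, with 1 point per sample, adjudin left in red and DMSO right in dark grey, and a bar at the mean of 8 samples. *Cdkn1a* and *Cdk4* lie above 37 RPKM in every sample, *Cdk6*, *Cdkn2a* and *Cdkn1c* below 2, and the treatments overlap for all 10 genes.

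The comparison of adjudin with DMSO within batches asked which parts of this control point responded to the compound. Among all genes tested 5.24% were called at an adjusted p under 0.05, 2.17% higher and 3.07% lower with adjudin. Of the 10 members 1 was called (*Ccnd2*, higher), 0 were called lower, and 2 had an unadjusted p under 0.05 (*Ccnd1* and *Ccnd2*). A single call among 10 members is near that background share and is not a result about the group. Of the 5 inhibitors 0 were called by edgeR, DESeq2 or limma-voom, and 0 had an unadjusted p under 0.05 in edgeR. The share of all genes tested that lay under this unadjusted value was not computed. It was well above 0.05, as *Mcm7*, with an unadjusted p of 0.0496 in edgeR, had an adjusted p of 0.237. Counts at an unadjusted p under 0.05, here and below, are therefore descriptions and not results about a list. The median log2 fold change was -0.021 over the members and 0.0032 over all genes tested.

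*Ccnd2* (ENSMUSG00000000184, chr6:127125162-127152193, minus strand), the D cyclin on which postnatal mouse beta cells mainly depend, rose by a small amount. Its lowest, median and highest values were 197, 250 and 282 CPM in adjudin islets and 188, 223 and 278 CPM in DMSO islets. The treatments overlapped widely, yet the adjudin sample was the higher one in 7 of 8 batches, and batch 6 was the exception, at 275 CPM with adjudin and 278 CPM with DMSO. Batch 4 moved most, with 257 CPM against 218 CPM. The fitted log2 fold change was 0.11 ± 0.030 (SE; 95% confidence interval 0.044 to 0.17, adjusted p = 0.0479), a rise of 7.75%. The call was close to the threshold. It held with batch 6 left out (adjusted p = 0.0192) and was lost with batch 1, 2, 3, 4, 5, 7 or 8 left out (adjusted p = 0.0585 to 0.137), while the log2 fold change stayed between 0.092 and 0.13.

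*Ccnd1* (ENSMUSG00000070348, chr7:144929931-144939925, minus strand), the D cyclin best known as a target of mitogen signalling, had an estimate of the same size but did not pass. Its lowest, median and highest values were 43.7, 58.9 and 64.3 CPM with adjudin and 40.9, 54.9 and 66.5 CPM with DMSO. Adjudin was higher in 7 of 8 batches, again with batch 6 as the exception and batch 4 as the widest gap (49.9 CPM against 40.9 CPM). The log2 fold change was 0.11 ± 0.035 (SE; interval 0.036 to 0.18, adjusted p = 0.0798). It passed with batch 6 left out (adjusted p = 0.0292). *Oraov1*, a gene of the opposite strand that overlaps *Ccnd1*, had counts equal to 59.2% of those of *Ccnd1* and a log2 fold change of 0.076 (adjusted p = 0.321). The strand setting of the counting is not given in the sources used here, so reads of the overlap cannot be assigned to one of them with certainty.

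*Ccnd3* (ENSMUSG00000034165, chr17:47505051-47599691, plus strand), the D cyclin most used by lymphoid cells, had an estimate on the other side of 0. It ranged from 48.4 to 64.2 CPM around a median of 54.9 CPM in adjudin islets, and from 47.7 to 67.8 CPM around a median of 59.4 CPM in DMSO islets. The adjudin sample was lower in 7 of 8 batches, all but batch 2 (54.0 CPM against 47.7 CPM), and the log2 fold change of -0.063 did not pass (interval -0.14 to 0.012, adjusted p = 0.330). Whether *Ccnd3* differed from the other D cyclins in its response was not tested. The overlapping gene *Bysl* on the opposite strand had 53.4% as many counts and a log2 fold change of -0.086 (adjusted p = 0.188).

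**Figure D2:**
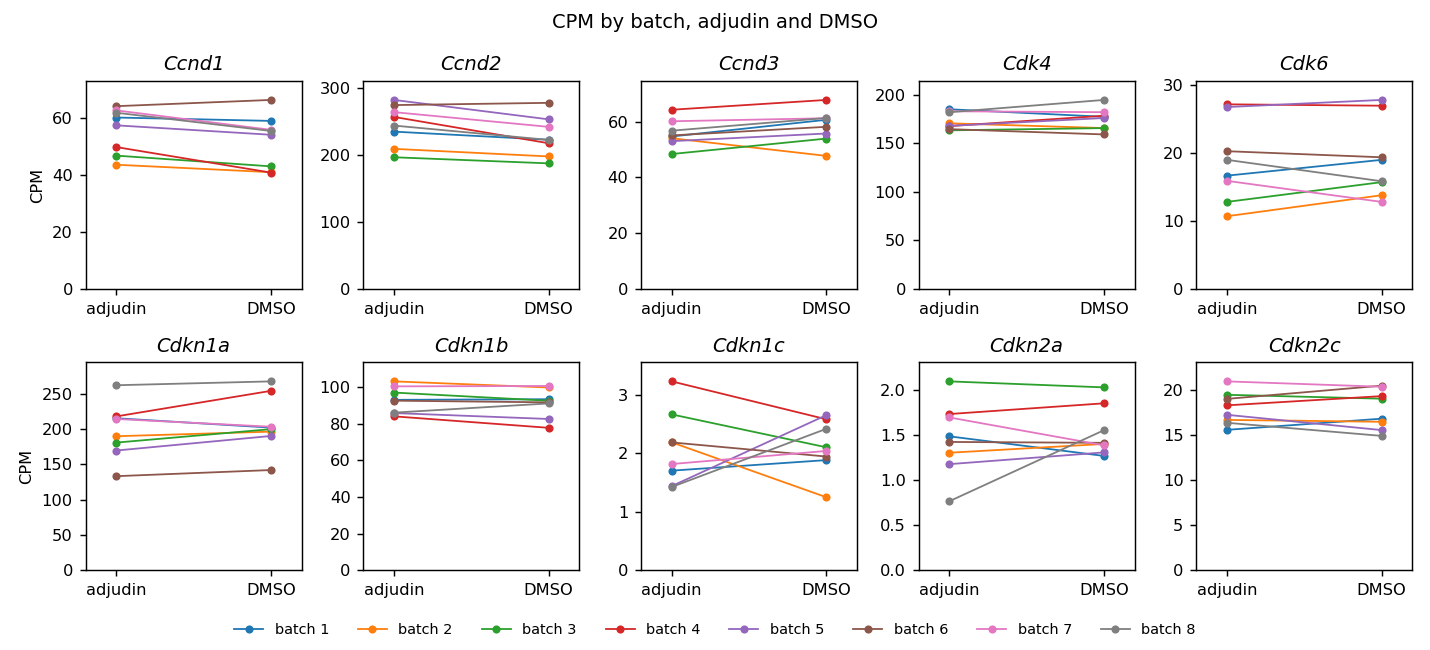
CPM of each member, with adjudin left and DMSO right in every panel and a line joining the samples of 1 batch (8 batches, axes from 0). Lines of *Ccnd1* and *Ccnd2* slope down from adjudin to DMSO in 7 of 8 batches, those of *Ccnd3* slope up in 7 of 8, and for most genes batches lie further apart than treatments.

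Within the D cyclin family *Ccnd2* made up 58.8% ± 1.86 of the summed RPKM in adjudin islets and 57.7% ± 1.88 in DMSO islets (SD, n = 8 each). *Ccnd1* held 26.8% ± 2.07 with adjudin and 26.3% ± 2.23 with DMSO. *Ccnd3* held 14.4% ± 1.41 with adjudin and 15.98% ± 1.94 with DMSO. The share of *Ccnd2* was higher with adjudin in 7 of 8 batches, that of *Ccnd1* in 5 of 8 and that of *Ccnd3* in 1 of 8. For *Ccnd1* and *Ccnd2* these differences were smaller than the SD between samples, for *Ccnd3* about as large, and the shares were not tested. *Ccnd2* was the largest share in every sample, also with the longest transcript lengths, which gave *Ccnd2* 48.3% with adjudin and 46.4% with DMSO and gave *Ccnd3* 33.1% with adjudin and 35.7% with DMSO.

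**Figure D3:**
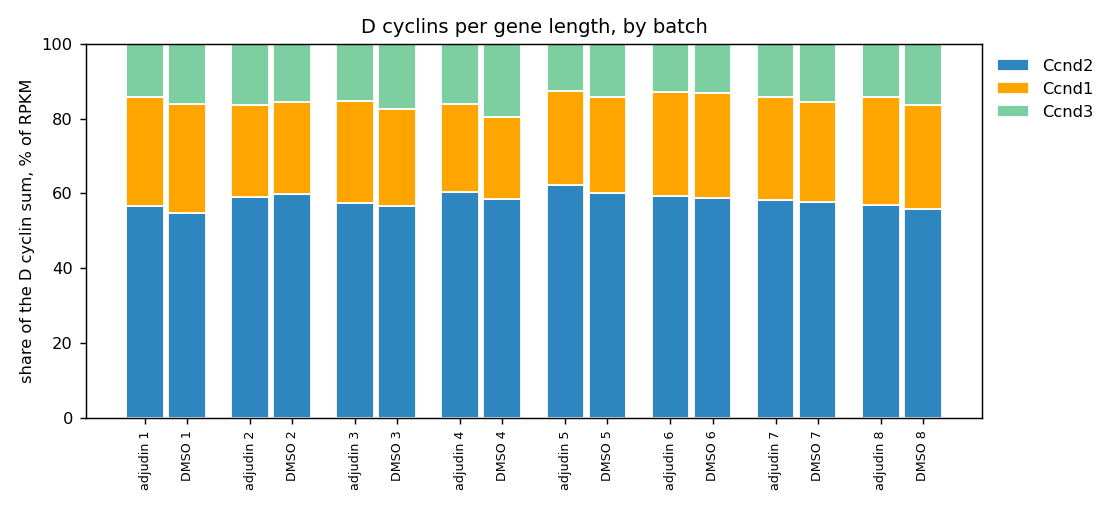
Share of each D cyclin in the summed RPKM of the family, in percent, for each of the 16 samples, with the adjudin bar left of the DMSO bar of the same batch. *Ccnd2* takes 56.7% to 62.2% with adjudin and 54.9% to 60.1% with DMSO, and the top band, *Ccnd3*, is thinner with adjudin in 7 of 8 batches.

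*Cdk4* (ENSMUSG00000006728, chr10:127063534-127067920, plus strand), the kinase that beta cells of the mouse use with the D cyclins, was the steadiest member between DMSO samples, whose highest value was 1.22 times the lowest. It had 163 to 185 CPM with a median of 169 CPM in adjudin islets and 159 to 194 CPM with a median of 177 CPM in DMSO islets. The adjudin sample was higher in 4 of 8 batches and the log2 fold change was -0.015 (interval -0.075 to 0.046, adjusted p = 0.819). *Tspan31*, which overlaps it on the opposite strand, had 38.97% as many counts and a log2 fold change of -0.015 (adjusted p = 0.834). *Myc*, whose product binds the E-box letters shown above, had 30.2 ± 5.05 CPM with adjudin and 32.9 ± 6.83 CPM with DMSO (SD, n = 8 each; log2 fold change -0.11, adjusted p = 0.210). *Myc* was singled out after its values were seen.

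*Cdk6* (ENSMUSG00000040274, chr5:3341485-3531008, plus strand), the sister kinase, was a minor transcript, and *Cdk4* held 97.5% ± 0.811 of the RPKM of the pair with adjudin and 97.5% ± 0.719 with DMSO. Its values ran from 10.7 to 27.2 CPM (median 17.8 CPM) with adjudin and from 12.8 to 27.8 CPM (median 17.4 CPM) with DMSO. Batches 4 and 5 were the highest in both treatments, between 26.8 and 27.8 CPM. In batches 7 and 8 *Cdk6* was higher with adjudin, by 0.31 and 0.26 on the log2 scale, whereas in batches 1, 2 and 3 it was lower, with differences of -0.19, -0.36 and -0.29. The fit gave -0.028 (interval -0.17 to 0.11, adjusted p = 0.856).

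*Cdkn1a* (ENSMUSG00000023067, chr17:29090976-29100727, plus strand) encodes p21, the inhibitor induced by p53 and by stress, and was the most abundant Cip/Kip transcript. It had 133, 202 and 262 CPM as lowest, median and highest values with adjudin and 142, 201 and 268 CPM with DMSO. Batch 6 was lowest and batch 8 highest in both treatments, and 94.7% of the variance of its log2 CPM lay between batches. Adjudin was lower in 6 of 8 batches, with a log2 fold change of -0.067 that did not pass (interval -0.14 to 0.0084, adjusted p = 0.297). In percent the interval ran from -9.38% to 0.583%.

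*Cdkn1b* (ENSMUSG00000003031, chr6:134920401-134925513, plus strand) encodes p27, which holds resting cells out of the cycle and is controlled largely by degradation of the protein. It ranged from 84.0 to 103 CPM (median 92.8 CPM) with adjudin and from 77.7 to 101 CPM (median 92.1 CPM) with DMSO. The adjudin sample was higher in 5 of 8 batches, and the log2 fold change of 0.026 did not pass (interval -0.032 to 0.084, adjusted p = 0.639). *Cdkn1a* made up 71.8% ± 4.62 of the Cip/Kip RPKM with adjudin and 73.0% ± 4.36 with DMSO, and *Cdkn1b* 26.9% ± 4.395 with adjudin and 25.7% ± 4.35 with DMSO (SD, n = 8 each).

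*Cdkn1c* (ENSMUSG00000037664, chr7:143458339-143461050, minus strand), an imprinted gene for p57 whose loss is tied to overgrowth of beta cells in humans, was scarce. With 33 to 108 counts a sample it reached 1.42 to 3.23 CPM (median 2.00 CPM) with adjudin and 1.25 to 2.65 CPM (median 2.07 CPM) with DMSO. Its batches disagreed, from a difference of 0.77 in batch 2 to one of -0.85 in batch 5 on the log2 scale. The interval of its log2 fold change (-0.032, adjusted p = 0.941) ran from -0.39 to 0.33, in percent from -23.6 to 25.3. The coefficient of variation between DMSO samples was 21.4%, against 13.0% from counting alone.

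*Cdkn2a* (ENSMUSG00000044303, chr4:89274471-89294653, minus strand) gives rise to p16Ink4a, which binds CDK4 and CDK6, and to p19Arf, which stabilises p53, from the separate starts shown above. The single gene count does not separate these transcripts. It had 21 to 70 counts a sample, with 0.767, 1.45 and 2.09 CPM as lowest, median and highest values with adjudin and 1.27, 1.41 and 2.03 CPM with DMSO. Batch 3 was highest in both treatments. The log2 fold change was -0.084 (interval -0.41 to 0.24, adjusted p = 0.806), and batch 8 alone differed by -0.96. Without batch 8 the log2 fold change was 0.032.

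*Cdkn2c* (ENSMUSG00000028551, chr4:109660876-109667189, minus strand), the gene of the INK4 protein p18, was the better expressed INK4 member. It ranged from 15.5 to 20.9 CPM (median 17.7 CPM) with adjudin and from 14.9 to 20.4 CPM (median 17.9 CPM) with DMSO. Adjudin was higher in 5 of 8 batches, and the log2 fold change was 0.0088 (interval -0.089 to 0.11, adjusted p = 0.941). The INK4 genes outside the members, *Cdkn2b* and *Cdkn2d*, were also measured, and 0 of 2 passed (1 at an unadjusted p under 0.05). That gene was *Cdkn2b*, lower with adjudin in 6 of 8 batches (log2 fold change -0.089, interval -0.17 to -0.0039, edgeR unadjusted p = 0.0413, adjusted p = 0.215). *Cdkn2b*, which encodes p15, averaged 29.1 ± 4.00 CPM with adjudin and 30.9 ± 4.77 CPM with DMSO (SD, n = 8 each), 22.2 RPKM with DMSO and so above both INK4 members per length.

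**Figure D4:**
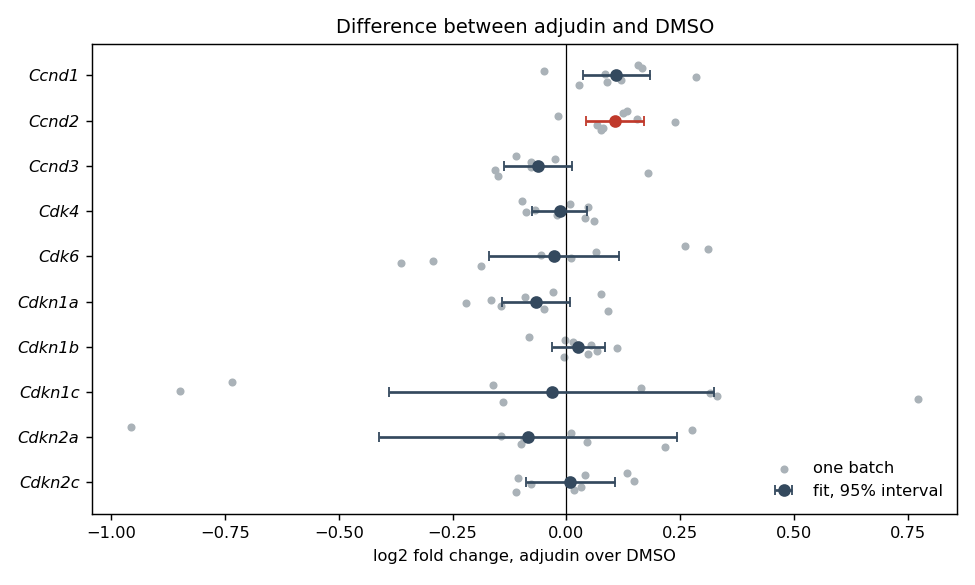
Log2 fold change of each member, adjudin over DMSO, with its 95% interval (large points; red for an adjusted p under 0.05, dark grey otherwise) and the log2 difference in each of the 8 batches (small points). Intervals of *Ccnd1* and *Ccnd2* lie above 0, only *Ccnd2* passed the threshold, and the widest intervals are those of the scarce *Cdkn1c* and *Cdkn2a*.

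Batch accounted for most of the spread of nearly every member. The share of the variance of log2 CPM between batches, taken from sums of squares, was 80.5% to 94.7% for 8 of the members. It was 66.6% for *Cdkn2a* (remainder 31.3%) and 44.2% for *Cdkn1c* (remainder 55.5%). With 8 batches over 16 samples, batch takes a large share even of random spread. The shares of *Cdkn1c* and *Cdkn2a* therefore do not show whether their batches differed. None of the shares, of batch or of treatment, was tested. Treatment took 8.80% for *Ccnd2*, 5.70% for *Ccnd1*, 5.40% for *Ccnd3* and 0.105% to 2.13% for the other 7. The labels do not say what a batch number stands for, and mice, isolation and culture cannot be told apart within it. Over the 16 samples the genes whose log2 CPM followed *Ccnd2* most closely, among 16909 others, were *Tm7sf3* (Pearson r = 0.955), *Ppm1l* (r = 0.951) and *Sort1* (r = 0.950). The points share batches and libraries, and the values are a description.

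Downstream of the kinases, the pocket proteins and E2F factors gave 0 of 13 genes past the test (1 at an unadjusted p under 0.05), with a median log2 fold change of 0.0093. *E2f4*, a repressive E2F of resting cells, was the most abundant per length, at 23.2 RPKM with DMSO. Cyclin E, CDK2 and the CDK-activating kinase gave 0 of 7, also 0 at an unadjusted p under 0.05, and *Cdk7* of that kinase led them with 8.32 RPKM. The genes for degradation of D cyclins and Cip/Kip proteins gave 0 of 13 tested (4 at an unadjusted p under 0.05), with *Ddb1*, an adaptor of cullin ubiquitin ligases, highest at 130 RPKM. Genes of cell cycle exit gave 0 of 12 (1 at an unadjusted p under 0.05), led by the antiproliferative *Btg1* at 34.6 RPKM. DESeq2 and limma-voom likewise called 0 in these 4 lists.

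Of p53 and its targets, 2 of 23 fell and 0 rose, and the median log2 fold change was -0.060. Over all genes tested 5.24% were called, and so few calls are not a result about the list. A negative log2 fold change was found for 18 of the 23 and a positive one for 5, against 8215 negative of all 16910 genes tested. Their summed CPM was higher with adjudin in 0 of 8 batches. The list was not tested as a set. An unadjusted p under 0.05 was reached by 10 of the 23, and 4 were called by DESeq2 (3 lower and 1 higher) and 2 by limma-voom. *Pmaip1*, which encodes the pro-apoptotic protein NOXA, fell to 21.6 ± 4.58 CPM with adjudin, against 27.3 ± 7.01 CPM with DMSO (SD, n = 8 each; log2 fold change -0.33 ± 0.052 SE, adjusted p = 0.00166, lower in 8 of 8 batches). *Phlda3*, a p53 target that restrains AKT signalling, fell to 83.8 ± 14.6 CPM with adjudin, against 97.3 ± 18.8 CPM with DMSO (-0.21 ± 0.038 SE, adjusted p = 0.00395, lower in 7 of 8). *Pmaip1* and *Phlda3* remained called in each of the 8 fits that left out a batch. *Ccng1*, the most abundant target of the list per length (65.1 RPKM with DMSO), did not pass. *Cdkn1a*, described above, is the p53 target that inhibits CDKs.

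Of the chromatin and transcriptional regulators of the *Cdkn2a* locus, 1 of 14 rose and 0 fell (5 at an unadjusted p under 0.05, with 2 called by DESeq2 and 1 by limma-voom). A single call is near the 5.24% called over all genes tested and is not a result about this list. *Cbx7*, a Polycomb protein that represses this locus, averaged 38.6 ± 5.36 CPM with adjudin and 34.5 ± 7.14 CPM with DMSO (SD, n = 8 each), was higher in 8 of 8 batches and had a log2 fold change of 0.17 ± 0.043 (SE, adjusted p = 0.0283). It was called in 4 of the 8 fits that left out a batch (adjusted p up to 0.0754). *Id1*, an inhibitor of basic helix-loop-helix factors, was highest per length in this list, at 36.8 RPKM with DMSO.

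Among 30 growth signal genes upstream of the D cyclins 2 rose and 1 fell, and the median log2 fold change was 0.038. With 5.24% called over all genes tested, these few calls are not a result about the list. A positive log2 fold change was found for 21 of the 30 and a negative one for 9, against 8695 positive of all 16910 genes tested. Their summed CPM was higher with adjudin in 5 of 8 batches, and the list was not tested as a set. The list had 12 genes at an unadjusted p under 0.05, and DESeq2 called 6 (5 higher and 1 lower) and limma-voom 4 (3 higher and 1 lower). *Nfatc2*, a calcium-regulated factor that drives beta cell replication, had 34.6 ± 6.70 CPM with adjudin and 31.3 ± 5.69 CPM with DMSO (0.14 ± 0.035 SE, adjusted p = 0.0288, higher in 8 of 8 batches). *Ghr*, the growth hormone receptor, had 222 ± 19.3 CPM with adjudin and 205 ± 24.3 CPM with DMSO (0.12 ± 0.032 SE, adjusted p = 0.0402, higher in 8 of 8). *Pdgfra*, a receptor of mesenchymal cells and also on the stellate marker list, fell to 51.9 ± 18.2 CPM with adjudin, against 59.4 ± 21.2 CPM with DMSO (-0.19 ± 0.046 SE, adjusted p = 0.0245, lower in 7 of 8; SD, n = 8 for each gene). Calls of these genes were lost in part when a batch was left out, with *Nfatc2* called in 3 of 8 such fits (adjusted p up to 0.0769), *Ghr* in 2 (up to 0.128) and *Pdgfra* in 4 (up to 0.0777). *Ctnnb1*, which encodes beta-catenin, was the most abundant, at 160 RPKM with DMSO.

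The S, G2 and M phase genes, which act after the D cyclins, held calls in the direction opposite to that of *Ccnd2*. Of 30, 5 fell and 0 rose, where 3.07% of all genes tested were called lower. A negative log2 fold change was found for 28 of the 30, against 8215 of all 16910 genes tested. The median was -0.10, and their summed CPM was lower with adjudin in 7 of 8 batches, at 571 to 822 CPM against 579 to 862 CPM with DMSO. *Cdc20*, an activator of the anaphase-promoting complex, fell to 15.5 ± 2.75 CPM with adjudin, against 18.4 ± 3.30 CPM with DMSO (log2 fold change -0.25 ± 0.046 SE, adjusted p = 0.00468). *Ccna2*, the cyclin of S phase and G2, fell to 16.5 ± 3.61 CPM with adjudin, against 19.5 ± 4.05 CPM with DMSO (-0.25 ± 0.046 SE, adjusted p = 0.00550; SD, n = 8 each). DESeq2 and limma-voom each called 4 of the list, and 15 had an unadjusted p under 0.05. *Cdc20* and *Ccna2* were lower in 8 of 8 batches and remained called in each of the 8 fits that left out a batch.

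The other 3 called genes of this list were the helicase subunit gene *Mcm6* (-0.13, adjusted p = 0.0326), the mitotic kinase gene *Plk1* (-0.22, adjusted p = 0.0400) and *Cdk1*, the kinase of mitotic entry (-0.17, adjusted p = 0.0431). With a batch left out *Mcm6* was called in 3 of 8 fits (adjusted p up to 0.115), *Plk1* in 1 (up to 0.110) and *Cdk1* in 0 (0.0541 to 0.101). *Ccnb2*, a cyclin partner of CDK1, had 8.96 ± 1.599 CPM with adjudin and 10.4 ± 1.82 CPM with DMSO and did not pass (SD, n = 8 each; -0.21, adjusted p = 0.0906). *Pcna*, the sliding clamp of DNA replication and the most abundant of the list per length (34.7 RPKM with DMSO), did not pass. The macrophage, stellate and acinar marker values given above moved in the same direction across the same samples, and their part in this result was not tested.

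**Figure D5:**
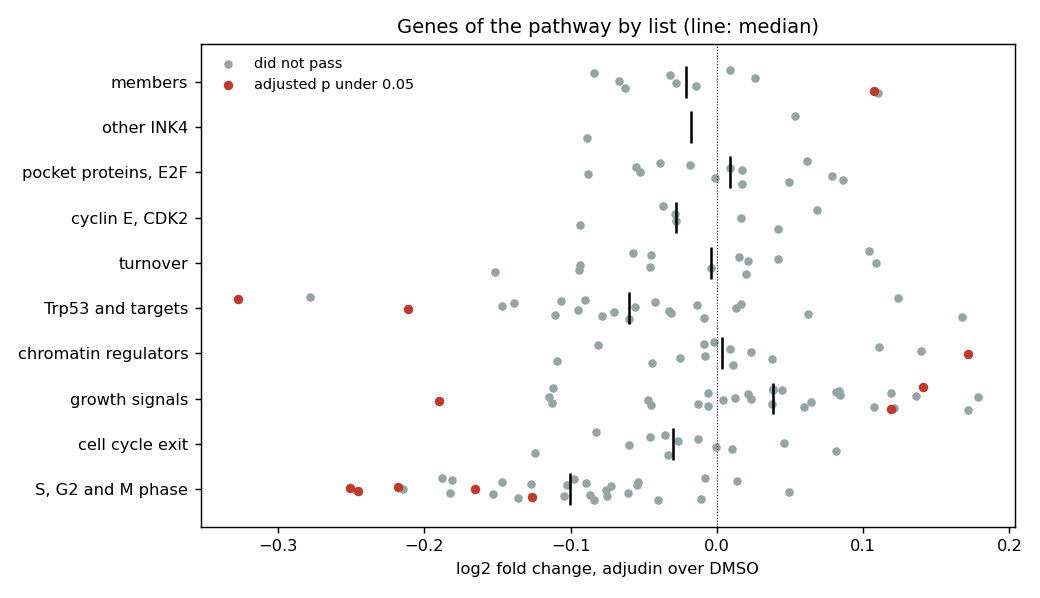
Log2 fold change, adjudin over DMSO, of each tested gene in 10 lists, with 1 point per gene (red for an adjusted p under 0.05, grey otherwise) and a line at the median of the list. *Ccnd2* is the red point among the members, and of the S, G2 and M phase genes 28 of 30 lie left of 0.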

How the data were processed

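mRNA selected with poly-T beads from 16 islet samples was sequenced. The authors aligned the reads to GRCm38 (mm10) with HISAT2 2.0.5 and deposited raw counts per gene made with featureCounts 1.5.0-p3. Neither annotation release nor strand setting is given in the sources used here. Columns were matched to samples by treatment and number, and all were used. Among 56 pairs of samples within a treatment, 0 were identical, and the chi-square per degree of freedom was at least 9.63.

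Analysis of these deposited counts used R 4.3.3 and edgeR 4.0.16: filterByExpr by treatment (16910 of 54532 genes), TMM factors, and the quasi-likelihood test with batch and treatment as terms, with Benjamini-Hochberg adjustment over the tested genes and a threshold of 0.05. Standard errors were taken as the size of the log2 fold change divided by the root of the F statistic. Log2 CPM used a prior count of 2. The script was tested on simulated counts. Samples with the same batch number in the labels departed from the means of their treatments in the same way (correlation 0.371 to 0.690, against a median of -0.180 for other pairs), so the paired design was kept.

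The members and lists were chosen with earlier results of these data known. Named genes were the members, up to 4 called genes with the smallest p and the most abundant gene of each pathway list, the cell cycle genes the study names for these islets, and the 3 genes most like a called member. Alternatives were DESeq2 1.42.0, limma-voom (limma 3.58.1), no batch term, other scaling factors, filters and lengths, and leaving out each batch. The sources do not say whether the samples of a batch share mice. With 8 samples a treatment, 95% confidence intervals of the members ranged from a few percent for abundant genes to more than 20% for those with the fewest counts, 21 to 108 a sample.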

Additional observations from a re-analysis of the deposited data

Results flagged for a closer look

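The lowest DMSO value of *Cdkn1c*, in batch 2, lay apart from the other 7 DMSO samples. It was 1.25 CPM (33 counts), the next lowest was 1.88 CPM and the highest 2.65 CPM. Measured on log2 CPM, the gap to the next lowest was 0.542 of the range, against a critical value of 0.526. Of 20 groups examined (10 members in 2 treatments), 1 stood out in this way, and chance gives about 1 in 20.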

How the results depend on the processing

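Without the replicate block (batch term) 1 gene was called in place of 886, and 0 members in place of 1 (*Ccnd2*, adjusted p = 0.9997). Without a filter on low counts 1577 genes were called, of which 52.4% were higher with adjudin, against 41.4% as reported. Upper quartile scaling gave 0 members called (*Ccnd2*, adjusted p = 0.0576). *Ccnd2* was called in 8 of 10 alternatives other than leaving out a batch and *Ccnd1* in 0 of 10, with the smallest adjusted p at 0.0567 for *Ccnd1*. With a batch left out, 412 (without batch 4) to 1071 (without batch 6) genes and 0 to 2 members were called. The log2 fold changes then crossed 0 for *Cdk4* (-0.025 to 0.00058), *Cdk6* (-0.070 to 0.013), *Cdkn1c* (-0.14 to 0.092), *Cdkn2a* (-0.13 to 0.032) and *Cdkn2c* (-0.0085 to 0.029), none of them called. All other alternatives kept the direction of every member. The cause of these changes was not tested.

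By CPM without gene length, *Ccnd2* held 68.6% of the D cyclin sum with adjudin and 67.3% with DMSO, and *Ccnd1* 15.7% with adjudin and 15.3% with DMSO. With the longest GENCODE transcript in place of the deposited length, a choice made after seeing the data, *Ccnd2* held 48.3% with adjudin and 46.4% with DMSO, *Ccnd1* 18.6% with adjudin and 17.9% with DMSO, and *Ccnd3* 33.1% with adjudin and 35.7% with DMSO. The other settings chosen after seeing the data, filterByExpr given the batch model and edgeR without its legacy dispersion, each called *Ccnd2* (adjusted p = 0.0446 and 0.0388). At 21 to 108 counts a sample, counting alone gives a coefficient of variation of 13.0% for *Cdkn1c* and 15.3% for *Cdkn2a* in DMSO islets.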
